A study of Homo sapiens with 8 samples.

Results

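Polyamines (putrescine, spermidine and spermine) are small, positively charged molecules that bind RNA, DNA and acidic proteins and that dividing cells need. The 10 genes described here encode the enzymes that make them (ODC1, AMD1, SRM, SMS), the enzymes that break them down (SAT1, SMOX, PAOX) and the proteins that set how long ornithine decarboxylase lasts (OAZ1, OAZ2, AZIN1). They were picked as members of the pathway, with earlier results of these arrays known, and all 10 were measured among the 19775 genes read from the arrays. Of the 23 probe sets annotated to these genes, 22 carried 1 symbol and 1 was shared by SAT1 and ZSWIM8. Each gene was read by the single-symbol probe set that was brightest on average across the 8 arrays, and the other probe sets are given beside it.

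The cells were MDA-MB-453, an androgen-responsive human breast cancer line without estrogen receptor. Before treatment all groups spent 3 days without phenol red and with 5% serum stripped by charcoal/dextran, which is depleted of steroids. The groups were vehicle and 10 nM 5α-dihydrotestosterone (DHT, a strong androgen) for 4, 16 and 48 h, each with n = 2 arrays labelled as biological replicates. The vehicle arrays have no stated time and serve all 3 comparisons, so these comparisons share their control and time in culture cannot be told apart from DHT. One cell line was used, and the labels do not say how the replicates were separated, so tests measure only the spread between these arrays.

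Polyamine synthesis starts when ODC1 takes the carboxyl group off ornithine to give putrescine. AMD1 decarboxylates S-adenosylmethionine into the donor of aminopropyl groups, which SRM adds to putrescine to give spermidine and SMS adds to spermidine to give spermine. Breakdown runs through SAT1, which acetylates spermidine and spermine, and PAOX, which oxidises the acetylated forms, while SMOX oxidises spermine directly. Antizymes (OAZ1, OAZ2) bind ODC1 protein and send it to the proteasome, and AZIN1 binds antizyme and so spares ODC1. In prostate, ODC1 has long been studied as an androgen-responsive gene, and ODC1 is also a textbook target of the transcription factor MYC through CACGTG sites, called E-boxes.

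Promoter windows of 7 of the 10 genes could be matched in RefSeq (GRCh38.p14), 10 windows in all, each with 250 bases before and 50 after a listed transcript start. Stretches of the 2 genes called higher and of the 1 called lower in the arrays are printed, 5′ to 3′ on the gene's own strand, with CACGTG and TATAA in capitals. SRM lies on the minus strand (chr1:11060019-11060268), SMS on the plus strand (chrX:21940459-21940708), and the upstream start of ODC1 on the minus strand (chr2:10448328-10448577). The start listed 315 bases downstream in ODC1 had 2 E-boxes, shown with their flanks (chr2:10448024-10448053 and chr2:10447990-10448019, minus strand).
SRM: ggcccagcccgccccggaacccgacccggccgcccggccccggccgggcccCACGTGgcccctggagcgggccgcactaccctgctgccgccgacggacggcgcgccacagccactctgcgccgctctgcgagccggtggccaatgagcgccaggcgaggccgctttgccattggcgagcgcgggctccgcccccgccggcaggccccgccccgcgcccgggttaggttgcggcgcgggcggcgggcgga
ODC1, upstream start: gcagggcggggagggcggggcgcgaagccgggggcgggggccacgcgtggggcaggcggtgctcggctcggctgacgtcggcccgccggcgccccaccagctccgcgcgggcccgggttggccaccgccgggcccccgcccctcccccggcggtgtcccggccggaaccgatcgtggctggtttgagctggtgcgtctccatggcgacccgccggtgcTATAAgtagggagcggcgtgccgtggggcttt
ODC1, first E-box of the downstream start: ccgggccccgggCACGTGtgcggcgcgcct
ODC1, second E-box of the downstream start: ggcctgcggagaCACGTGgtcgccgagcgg
SMS: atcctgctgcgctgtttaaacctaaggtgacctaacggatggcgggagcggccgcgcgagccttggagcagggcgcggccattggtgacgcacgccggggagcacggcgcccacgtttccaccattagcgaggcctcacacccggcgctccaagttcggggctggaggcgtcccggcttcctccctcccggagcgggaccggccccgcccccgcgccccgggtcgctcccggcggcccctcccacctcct

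CACGTG, which reads the same on both strands, was found in windows of 2 of the 7 members matched, ODC1 and SRM. Among the 10 windows, those holding it were the SRM window and that of the downstream ODC1 start. Of all 34943 windows of this length, 7.23% held it. Counting bases after a start from 1 and bases before it as negative, the match began at -199 in SRM and at -29 and 6 from the downstream start in ODC1. The full androgen response element (AGAACA, any 3 bases, TGTTCT) and its single arm AGAACA, which every full element contains, were searched on both strands and had no match in these members' windows. Of all windows, 0.00286% held the full element and 14.8% the arm. TATAA, searched on both strands, was found before the upstream ODC1 start and in windows of AMD1 and OAZ1, against 20.5% of all windows. These matches describe letters in the windows and were not tested for binding.

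The identity and quality of the arrays were checked once. The 9 luminal and apocrine markers read had mean signals of 10.41 to 14.14, and ESR1 and PGR 8.47 and 7.41, on the log2 scale of these arrays. FKBP5, a classical androgen target, had a log2 change of 0.98 at 4 h, 2.45 at 16 h and 3.34 at 48 h against vehicle (limma adjusted p = 0.00315, 1.59e-07 and 6.07e-09). Its 2 other probe sets had 0.92 and 0.87 at 4 h, 2.07 and 1.37 at 16 h, and 3.24 and 3.42 at 48 h. In limma over all probe sets neither was called at 4 h (adjusted p = 0.542 and 0.894), and the one with 1.37 was not called at 16 h (adjusted p = 0.286). That probe set read 10.87 on DHT 16 h replicate 1 and 8.61 on DHT 16 h replicate 2, against 8.61 and 8.13 with vehicle. Replicates correlated across genes at r = 0.995 to 0.997. DHT 16 h replicate 2 stood apart: its 3′ minus 5′ control signal was 1.52 for ACTB and 0.817 for GAPDH, against 0.203 to 0.945 and 0.185 to 0.349 on the other arrays. For the 10 genes, the pathway genes called at 16 h and MYC, the change at 16 h of the probe set read is therefore given with and without it, and FKBP5 had 2.40 at 16 h without it.

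ODC1 and SRM rose and SMS fell under DHT, and the other 7 genes were not called. A gene was called at a Benjamini-Hochberg adjusted p below 0.05 over all 19775 genes in limma. At 4 h, 0 of 10 genes were called, against 0.177% of all genes, and 3 of 10 had an unadjusted p below 0.05, against 7.84% of all genes. At 16 h, 2 of 10 were called, both higher and 0 lower, against 6.85% of all genes called, 2.55% higher and 4.3% lower, and 4 had an unadjusted p below 0.05 (19.9% of all genes). At 48 h, 2 were called higher and 1 lower, against 9.51% of all genes called, 3.13% higher and 6.38% lower, and 4 had an unadjusted p below 0.05 (22% of all genes). The median log2 change of the 10 genes was 0.13 at 4 h, -0.0033 at 16 h and 0.010 at 48 h, and over all genes it was 0.0027, 0.024 and 0.012. Over the time course as a whole, a moderated F test called ODC1 (adjusted p = 0.00853), SRM (0.0223) and SMS (0.0363), against 8.9% of all genes. In arrays of whole cultures, fewer cells that express a gene and less RNA per cell cannot be told apart.

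**Figure D1:**
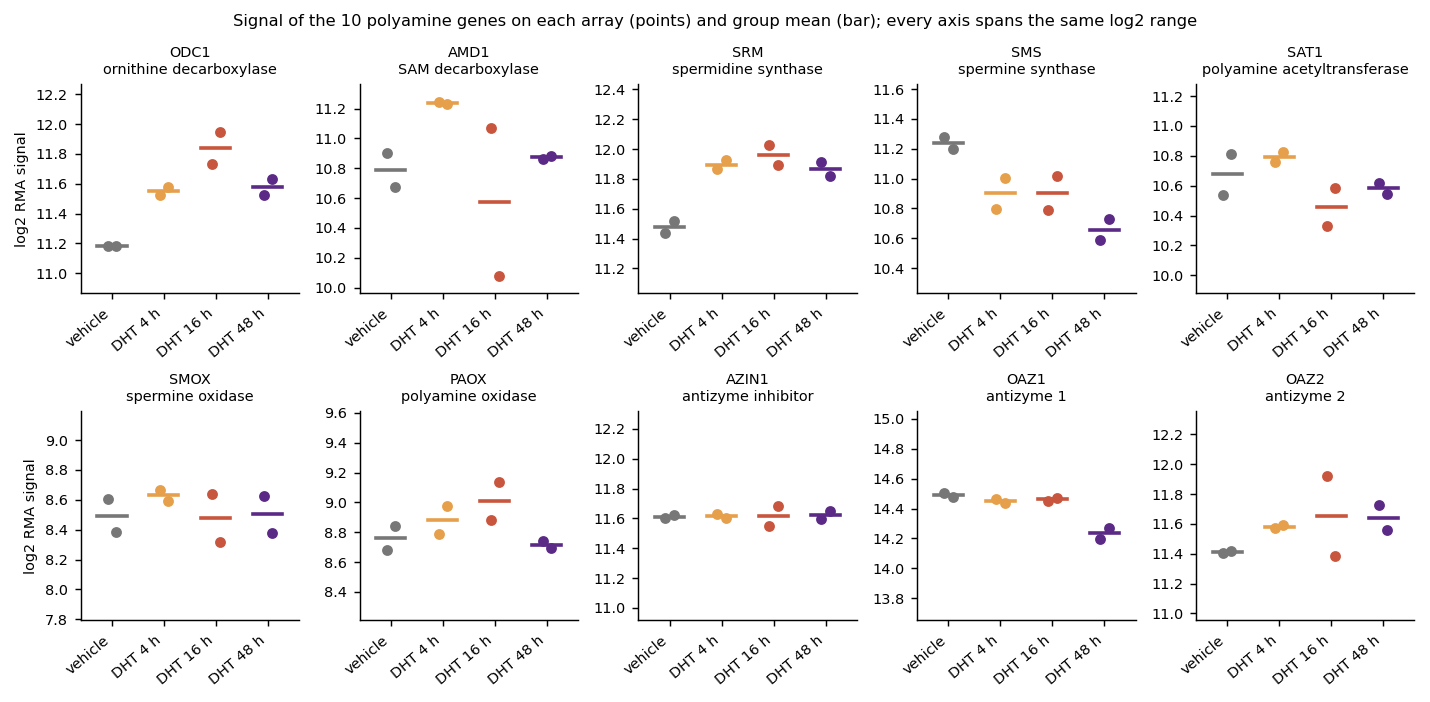
Log2 RMA signal (y axis, log scale) of the 10 polyamine genes on each array (points) with the group mean (bar), for vehicle and DHT at 4, 16 and 48 h (x axis). ODC1 and SRM lay above vehicle on all 6 DHT arrays and SMS below it, AZIN1 stayed between 11.55 and 11.68, and AMD1 had 1 low array at 16 h (10.08).

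ODC1, the first and usually rate-limiting enzyme of the pathway, had log2 signals of 11.19 and 11.19 with vehicle, 11.53 and 11.58 at 4 h, 11.73 and 11.95 at 16 h, and 11.53 and 11.63 at 48 h. Every DHT array stood above both vehicle arrays, and both 16 h arrays stood above all others. Against vehicle the log2 change was 0.37 ± 0.10 at 4 h (SE, n = 2, adjusted p = 0.309 in limma), without a call. It was 0.65 ± 0.10 at 16 h, a 1.57-fold higher level (adjusted p = 0.00232), and 0.39 ± 0.10 at 48 h, a 1.31-fold rise (adjusted p = 0.0289). The difference between times was not called: the log2 change was 0.29 for 16 h against 4 h (adjusted p = 0.190) and -0.26 for 48 h against 16 h (adjusted p = 0.354). Without DHT 16 h replicate 2 the change at 16 h was 0.55 and stayed called (adjusted p = 0.0159), as it did without each other array in turn. At 48 h the call was lost without either vehicle array, either 4 h array or either 48 h array, with log2 changes of 0.34 to 0.45 and adjusted p up to 0.150.

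SRM, spermidine synthase, had log2 signals of 11.44 and 11.52 with vehicle, 11.86 and 11.93 at 4 h, 12.03 and 11.89 at 16 h, and 11.92 and 11.82 at 48 h. All 6 DHT arrays were higher than both vehicle arrays, and the 3 DHT groups overlapped one another. The log2 change was 0.42 ± 0.09 at 4 h (SE, n = 2, limma adjusted p = 0.177), 0.48 ± 0.09 at 16 h (1.40-fold, adjusted p = 0.0105) and 0.39 ± 0.09 at 48 h (1.31-fold, adjusted p = 0.0245). The changes between DHT times lay between -0.09 and 0.06, with 95% intervals from -0.30 to 0.27 over the 3 comparisons. At 16 h the change was 0.55 without DHT 16 h replicate 2 (adjusted p = 0.0174) and 0.44 without vehicle replicate 1, where the call was lost (adjusted p = 0.0990). At 48 h the call was lost without either vehicle array or either 48 h array, with log2 changes of 0.34 to 0.44 and adjusted p up to 0.185.

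SMS, which makes spermine, went the other way from SRM, which makes its substrate. Its log2 signals were 11.28 and 11.20 with vehicle, 10.80 and 11.01 at 4 h, 10.79 and 11.02 at 16 h, and 10.59 and 10.73 at 48 h. All 6 DHT arrays were lower than both vehicle arrays, and the 48 h arrays were the lowest. The log2 change was -0.34 ± 0.11 at 4 h (SE, n = 2, limma adjusted p = 0.482), -0.33 ± 0.11 at 16 h (adjusted p = 0.115) and -0.58 ± 0.11 at 48 h (adjusted p = 0.00736), a level 1.49-fold lower with DHT than with vehicle. Without DHT 16 h replicate 2 the change at 16 h was -0.45, also without a call (adjusted p = 0.0754). The call at 48 h was lost without vehicle replicate 1 (log2 change -0.54, adjusted p = 0.0715) and without DHT 48 h replicate 1 (-0.51, adjusted p = 0.0918). The change of 48 h against 4 h was -0.24, with a 95% interval from -0.49 to 0.01 and no call (adjusted p = 0.306). SMS was read by 1 probe set, whose _s_at suffix marks probes shared among several transcripts.

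AMD1, S-adenosylmethionine decarboxylase, had log2 signals of 10.90 and 10.67 with vehicle, 11.24 and 11.23 at 4 h, 11.07 and 10.08 at 16 h, and 10.86 and 10.88 at 48 h. Both 4 h arrays were above both vehicle arrays, and DHT 16 h replicate 2 was the lowest of all 8. The replicates at 16 h differed by 0.988, which is percentile 99.7 of all genes, where the median gene differed by 0.120. The log2 change was 0.45 ± 0.23 at 4 h (SE, n = 2, limma adjusted p = 0.697), -0.21 at 16 h (adjusted p = 0.687) and 0.09 at 48 h (adjusted p = 0.873), none of them called.

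The second AMD1 probe set gave another picture of the same array. It read 10.53 and 10.55 with vehicle, 10.89 and 10.88 at 4 h, 10.76 and 11.12 at 16 h, and 10.50 and 10.85 at 48 h, so DHT 16 h replicate 2 was its highest value. Its log2 changes were 0.34 at 4 h and 0.40 at 16 h, again without a call (adjusted p = 0.874 and 0.232 over all probe sets). At 4 h all 4 readings of the 2 probe sets were above vehicle. At 48 h the second had a log2 change of 0.13, of the same sign as the first and not called (adjusted p = 0.726 in limma over all probe sets). Without DHT 16 h replicate 2 the change at 16 h of the probe set read here was 0.28 (adjusted p = 0.266), and without DHT 16 h replicate 1, which leaves that 1 array, it was -0.70 and called (adjusted p = 0.00568). The part of the 3′ to 5′ difference of that array in this was not tested.

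**Figure D2:**
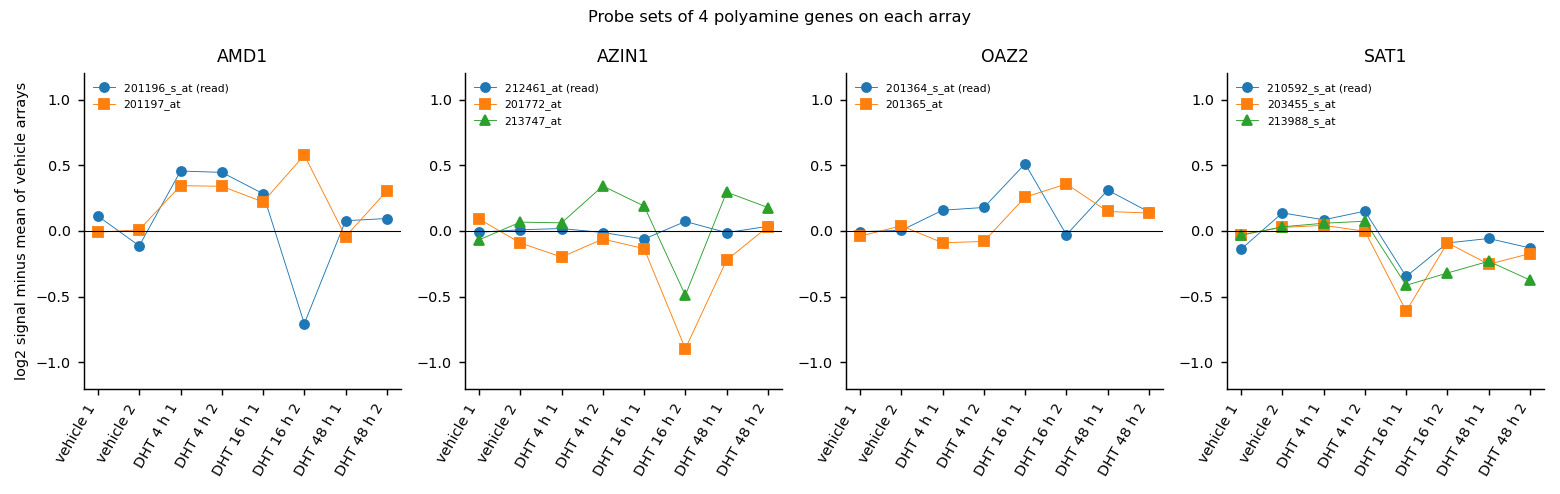
Log2 signal minus the mean of the vehicle arrays (y axis, log scale) of each probe set of AMD1, AZIN1, OAZ2 and SAT1 on each array (x axis, group and replicate number). Lines join the arrays of a probe set and do not mark time within a group. DHT 16 h replicate 2 parts the probe sets of AMD1 (10.08 and 11.12), AZIN1 and OAZ2, while the 3 of SAT1 stay closer.

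None of the 3 genes of breakdown was called at any time. SAT1, whose protein is the rate-limiting step of breakdown and is itself induced by polyamines, had log2 signals of 10.54 and 10.81 with vehicle, 10.76 and 10.83 at 4 h, 10.33 and 10.58 at 16 h, and 10.62 and 10.55 at 48 h. The vehicle arrays overlapped every DHT group. Its log2 change was 0.12 at 4 h, -0.22 at 16 h and -0.09 at 48 h, with 95% intervals from -0.14 to 0.38, -0.48 to 0.04 and -0.35 to 0.17 (limma adjusted p = 0.864, 0.348 and 0.710). Without DHT 16 h replicate 2 the change at 16 h was -0.35 (adjusted p = 0.199). The 2 dimmer single-symbol probe sets read below vehicle on both arrays at 16 h and at 48 h. Their log2 changes were -0.35 and -0.37 at 16 h and -0.21 and -0.30 at 48 h, and none was called over all probe sets (lowest adjusted p = 0.0954). The probe set shared with ZSWIM8 was dimmer (log2 6.85 to 7.50) and had 0.16 at 16 h and 0.20 at 48 h.

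SMOX read 8.60 and 8.38 with vehicle, 8.66 and 8.59 at 4 h, 8.64 and 8.32 at 16 h, and 8.63 and 8.38 at 48 h. The groups overlapped, with log2 changes of 0.14, -0.01 and 0.01 (limma adjusted p = 0.854, 0.977 and 0.979), and its other probe sets had 0.25 and 0.22 at 16 h without a call. The change at 16 h of the SMOX probe set read was 0.15 without DHT 16 h replicate 2 (adjusted p = 0.677). PAOX read 8.68 and 8.84 with vehicle, 8.79 and 8.98 at 4 h, 8.89 and 9.14 at 16 h, and 8.74 and 8.69 at 48 h. Only at 16 h did both arrays exceed vehicle, with a log2 change of 0.25 (adjusted p = 0.249) that was 0.12 without DHT 16 h replicate 2. The 3 other PAOX probe sets had 0.13, 0.16 and -0.09 at 16 h and 0.07, 0.34 and -0.21 at 48 h, none of them called. At 48 h both arrays were above vehicle in the probe set with 0.34 and below it in the one with -0.21. SMOX and PAOX were the dimmest members, near the middle of all genes in mean signal (percentiles 51.8 and 57.8), where background limits the precision of an array.

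Among the regulators of ODC1 protein, AZIN1 was the steadiest of the 10 in the probe set read. Its log2 signals were 11.60 and 11.62 with vehicle, 11.63 and 11.60 at 4 h, 11.55 and 11.68 at 16 h, and 11.60 and 11.65 at 48 h. The log2 changes were 0.00, 0.01 and 0.01, and their 95% intervals reached from -0.20 to 0.21 at most. Without DHT 16 h replicate 2 the change at 16 h was -0.06 (adjusted p = 0.849). The second AZIN1 probe set had -0.51 at 16 h (adjusted p = 0.301 over all probe sets), with 11.23 and 10.47 on the 16 h arrays against 11.45 and 11.27 with vehicle. The low value was again on DHT 16 h replicate 2, as it was for the third, dim probe set (7.32).

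OAZ1, the main antizyme, is made through a ribosomal frameshift that polyamines promote, a step that an array of RNA does not measure. Its log2 signals were 14.50 and 14.48 with vehicle, 14.46 and 14.43 at 4 h, 14.45 and 14.47 at 16 h, and 14.20 and 14.27 at 48 h. All DHT arrays were below vehicle, by a small margin until 48 h. The log2 change was -0.04 at 4 h, -0.03 at 16 h and -0.26 ± 0.09 at 48 h (SE, n = 2), the last with an adjusted p of 0.0981 in limma and no call. At 16 h the change was -0.04 without DHT 16 h replicate 2 (adjusted p = 0.903). The second probe set had -0.35 at 48 h (13.40 and 13.47 against 13.79 and 13.77 with vehicle), also without a call over all probe sets (adjusted p = 0.0906). The mean of both probe sets was called at 48 h (-0.30, adjusted p = 0.0310), as was the main probe set when limma's prior followed signal level with robust fitting (adjusted p = 0.00889).

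OAZ2, a second antizyme, had log2 signals of 11.41 and 11.42 with vehicle, 11.57 and 11.59 at 4 h, 11.92 and 11.38 at 16 h, and 11.72 and 11.56 at 48 h. All DHT arrays but DHT 16 h replicate 2 were above vehicle, and the 16 h replicates differed by 0.540, a larger gap than in most genes (percentile 98.2). The log2 change was 0.17 at 4 h, 0.24 at 16 h and 0.23 at 48 h (limma adjusted p = 0.831, 0.412 and 0.407). Without DHT 16 h replicate 2 the change at 16 h was 0.51 and called (adjusted p = 0.0271), with 1 array standing for the group. The second OAZ2 probe set had 10.89 and 10.99 at 16 h against 10.59 and 10.67 with vehicle, a log2 change of 0.31 without a call (adjusted p = 0.135 over all probe sets). At 4 h it went the other way from the probe set read, with 10.54 and 10.55, both below vehicle (log2 change -0.08, not called). At 48 h it had 0.14, also not called.

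**Figure D3:**
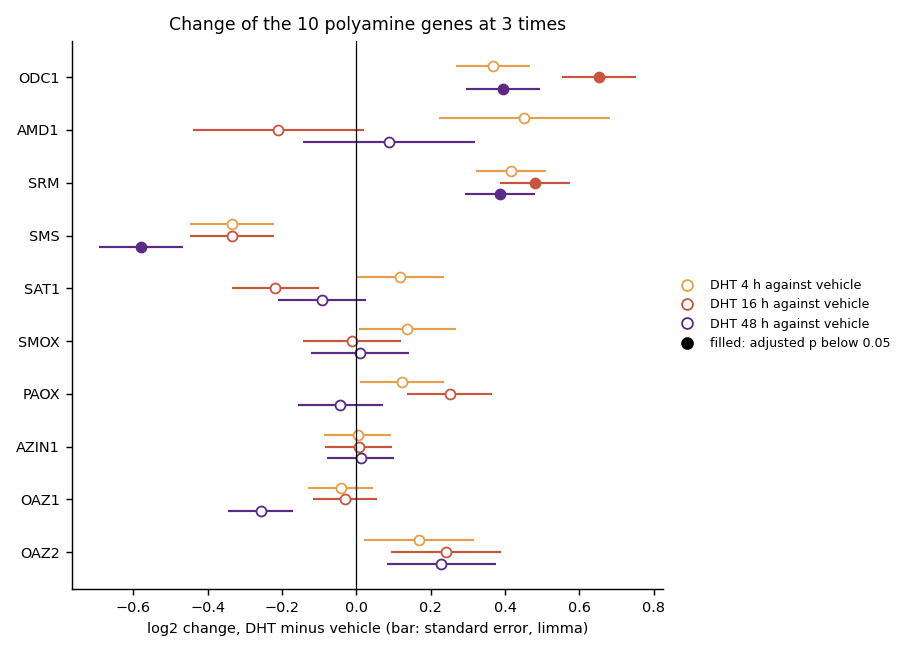
Log2 change of the 10 polyamine genes with DHT at 4, 16 and 48 h against vehicle (x axis, log scale), with standard errors from limma; filled points have an adjusted p below 0.05. ODC1 and SRM are filled on the right at 16 h (0.65 and 0.48) and 48 h, and SMS on the left at 48 h (-0.58).

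Counted by array, the 2 DHT arrays lay outside the range of vehicle on 1 side for 6 of 10 genes at 4 h, 5 at 16 h and 5 at 48 h. Over all genes these shares were 40.2%, 47% and 51.8%, so the counts of the members lay near the background. Of the 10, 4 were higher and 2 lower at 4 h (19.4% and 20.8% of all genes), 3 higher and 2 lower at 16 h (25.9% and 21.1%), and 3 higher and 2 lower at 48 h (25.8% and 26.1%). ODC1 and SRM were above vehicle, and SMS and OAZ1 below it, at all 3 times. In comparisons between DHT times, limma called 0 of 10 genes for 16 h against 4 h (3.05% of all genes), 0 for 48 h against 16 h (0.829%) and 0 for 48 h against 4 h (6.13%), with 3, 3 and 1 of 10 at an unadjusted p below 0.05 (14.3%, 10.7% and 17.1% of all genes). So within no gene was a difference between DHT times called, although ODC1 was highest at 16 h and SMS lowest at 48 h, and timing was not compared between genes.

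Genes that feed the pathway moved in both directions at 16 and 48 h, and none of the 5 lists had a call at 4 h in limma, with 3 of their genes at an unadjusted p below 0.05 (7.84% of all genes). Over all genes, 2.55% were called higher and 4.3% lower at 16 h, and 3.13% higher and 6.38% lower at 48 h. Of 8 genes of ornithine and arginine supply, 1 rose and 1 fell at 16 h, and 1 rose and 2 fell at 48 h. Their median log2 change was -0.18 and -0.097, against 0.024 and 0.012 over all genes. ASS1, which makes argininosuccinate on the way to arginine, had log2 signals of 12.65 and 12.52 at 16 h against 11.71 and 11.70 with vehicle, a rise of 0.88 ± 0.09 (SE, n = 2, limma adjusted p = 0.00017, and 0.95 without DHT 16 h replicate 2), and rose by 0.52 at 48 h (adjusted p = 0.00366). ARG2, the mitochondrial arginase that releases ornithine, fell by 0.87 ± 0.11 on the log2 scale at 16 h (adjusted p = 0.000732, and -0.86 without DHT 16 h replicate 2) and by 1.43 ± 0.11 at 48 h (adjusted p = 1.02e-05). Its other probe set, dimmer, had only -0.08 and -0.19, neither called (adjusted p = 0.780 and 0.442 over all probe sets), so the 2 probe sets disagree in size. OAT, which turns ornithine towards glutamate and proline, fell by 0.52 ± 0.10 at 48 h (adjusted p = 0.00573), a call lost without vehicle replicate 1 or DHT 48 h replicate 1 (adjusted p up to 0.0742).

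On the S-adenosylmethionine side, 2 of 10 genes rose at 16 h and 2 at 48 h, and 0 fell, against 2.55% of all genes higher at 16 h and 3.13% at 48 h. The median log2 change was 0.080 and 0.11, against 0.024 and 0.012 over all genes. AHCY, which clears the S-adenosylhomocysteine left by methylation reactions, had log2 signals of 13.36 and 13.32 at 16 h against 12.78 and 12.72 with vehicle. It rose by 0.60 ± 0.09 at 16 h (SE, n = 2, limma adjusted p = 0.00199, and 0.62 without DHT 16 h replicate 2) and by 1.06 ± 0.09 at 48 h (adjusted p = 1.9e-05). MAT2A, which makes S-adenosylmethionine, rose by 0.55 ± 0.14 at 16 h (adjusted p = 0.0352) and had 0.32 at 48 h. Its call at 16 h was lost in 6 of the 8 fits without 1 array, among them the fit without DHT 16 h replicate 2 (log2 change 0.38). The other MAT2A probe set had -0.11 at 16 h. It read 11.12 on DHT 16 h replicate 1 and 9.25 on DHT 16 h replicate 2, against 10.54 and 10.04 with vehicle. MRI1, of the pathway that returns the by-product methylthioadenosine to methionine, rose by 0.49 ± 0.12 at 48 h (adjusted p = 0.0259), lost without vehicle replicate 1 or either 48 h array, while its other probe set had 0.14.

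Of 3 further polyamine regulators, OAZ3, an antizyme known from testis, fell by 0.41 ± 0.11 at 16 h (SE, n = 2, limma adjusted p = 0.0432, and -0.51 without DHT 16 h replicate 2) and by 0.77 ± 0.11 at 48 h (adjusted p = 0.000832). The 16 h call was lost in 7 of the 8 fits without 1 array, and the other OAZ3 probe set had -0.06 and -0.17, so which transcripts the called _s_at probe set reads was not tested. Of 4 genes of hypusine and eIF5A, the protein that carries a spermidine-derived residue, and of 12 genes of polyamine and cationic amino acid transport, limma called 0 at every time against vehicle, where 0.177%, 6.85% and 9.51% of all genes were called at 4, 16 and 48 h. In the first list 0, 1 and 0 genes had an unadjusted p below 0.05 at 4, 16 and 48 h, and in the second 1, 2 and 1, against 7.84%, 19.9% and 22% of all genes. The medians of both lists lay between 0.014 and 0.10 at all 3 times. At 16 h EIF5A had a log2 change of -0.51 and the transporter ATP13A3 -0.78, both named after their values were seen. DHT 16 h replicate 2 read 11.12 for EIF5A and 8.61 for ATP13A3, and DHT 16 h replicate 1 read 12.36 and 10.24.

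**Figure D4:**
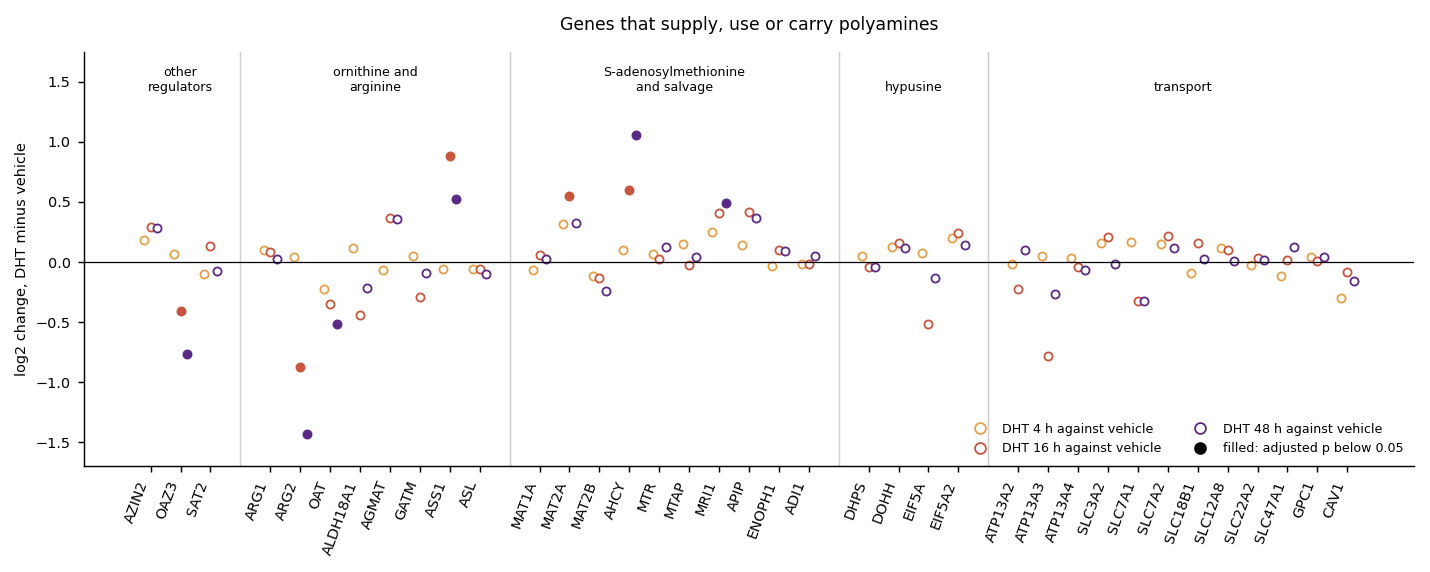
Log2 change with DHT at 4, 16 and 48 h against vehicle (y axis, log scale) of the genes that supply, use or carry polyamines, by list (x axis); filled points have an adjusted p below 0.05 in limma. ASS1 and AHCY are filled above 0 and ARG2 and OAZ3 below 0 at 16 and 48 h, and the hypusine and transport lists have no filled point.

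MYC, named above as a regulator of ODC1, had log2 signals of 10.54 and 10.55 with vehicle, 12.20 and 12.22 at 4 h, 12.05 and 11.65 at 16 h, and 11.60 and 11.79 at 48 h. Its log2 change of 1.67 ± 0.13 at 4 h (SE, n = 2, limma adjusted p = 0.000244) was followed by 1.31 at 16 h and 1.15 at 48 h, all called. At 16 h it was 1.51 without DHT 16 h replicate 2. The mean of MYC was highest at 4 h. Its log2 change was -0.36 for 16 h against 4 h, not called, and -0.52 for 48 h against 4 h, called lower in limma. ODC1, at 0.37 at 4 h and not called, had its highest mean at 16 h, also without a called difference between DHT times. The order of the 2 genes in time was not tested.

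Among 1767 genes whose group means spanned at least 0.5 log2 units, those most like ODC1 over the 8 arrays were PYCR3 (Pearson r = 0.988), NOLC1 (0.984), ECE2 (0.972), MTFP1 (0.968) and ISOC2 (0.967). Their log2 changes were 0.22 to 0.52 at 4 h, 0.51 to 0.90 at 16 h and 0.30 to 0.52 at 48 h. For SAT1 the likeness was looser: BICDL1 (r = 0.901), IQGAP3 (0.842), MYBL2 (0.841), HEG1 (0.836) and AURKB (0.835). Their log2 changes were 0.05 to 0.10 at 4 h, -0.78 to -0.57 at 16 h and -0.71 to -0.35 at 48 h. SAT1 itself had only -0.22 at 16 h and was not called. Its largest difference between group means, -0.34 for 16 h against 4 h, was smaller than the 0.5 asked of the compared genes, and its vehicle replicates differed by 0.276. These correlations are descriptions over 8 arrays in 4 groups, which share the same RNA and scaling.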

How the data were processed

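The deposited table holds log2 signals of 54675 probe sets on 8 Affymetrix arrays, normalised by the authors with RMA (robust multi-array average) per the submitters' processing notes, with values from 3.68 to 15.6. No version of RMA is stated in these sources. No counts underlie an array, so the number of arrays limits the precision. Control probe sets (62) were left out. Of the others, 41091 probe sets had 1 gene symbol in the platform annotation, 1801 several and 11721 none, and 19775 genes were read by their brightest single-symbol probe set.

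Using limma 3.58.1 (R 4.3.3), 4 group means were estimated from the 8 arrays together (4 residual and 7.21 prior degrees of freedom, two-sided, Benjamini-Hochberg over all genes). Values of further probe sets come from a fit of all 54613. The smallest p an exact permutation test of 2 arrays against 2 can give is 0.333, so none was run. All 10 members and the called members of 5 pathway lists (at most 5 a list) are named, with MYC and FKBP5. Members and lists were chosen with earlier results of these data known.

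Alternatives covered the choice of probe set, scaling, dim genes, moderation, array weights, the groups fitted, the replicate number as a block, and each array left out in turn.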

Additional observations from a re-analysis of the deposited data

How the results depend on the processing

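The call of ODC1 at 16 h was kept in all 18 alternatives (log2 change 0.55 to 0.76). SRM at 16 h was kept in 17 of 18. Counting each member under each alternative, no change called in the main fit turned its sign. AMD1 at 16 h, not called in the main fit, took both signs among the alternatives. Without 1 array, the counts of members called ranged from 1 to 3 higher and 0 to 1 lower at 16 h against vehicle, 0 to 2 higher and 0 to 1 lower at 48 h, 0 to 1 lower for 16 h against 4 h and for 48 h against 4 h, and 0 to 1 higher for 48 h against 16 h. The counts of all genes, 35, 1354 and 1881 at 4, 16 and 48 h against vehicle, ranged from 5 to 60, 517 to 1654 and 834 to 2211. Between times they were 604 for 16 h against 4 h, 164 for 48 h against 16 h and 1213 for 48 h against 4 h, and ranged from 171 to 1107, 37 to 644 and 490 to 1494. With the mean of all probe sets, 2 members were lower at 48 h, the second being OAZ1. With probe sets outside the _s_at, _x_at and _a_at kinds, where SMS, OAZ1 and others have none, 0 members were lower at 48 h, and all genes gave 18, 890, 348 (16 h against 4 h), 109 (48 h against 16 h) and 769 (48 h against 4 h), with fewer genes tested. With all probe sets fitted, 0 members were higher at 48 h (ODC1 adjusted p = 0.0770, SRM 0.0662), and the counts were 10 at 4 h and 92 for 48 h against 16 h. With trend and robust moderation, 2 members were lower at 48 h, 1 (OAZ1) was lower for 48 h against 4 h, and 67 genes were called at 4 h, against 74 with array weights. With only the groups compared, 1 member (AMD1) was lower for 48 h against 4 h, and the counts were 798 at 16 h, 302 for 16 h against 4 h and 63 for 48 h against 16 h; the causes were not tested. With equal housekeeping signal the share of calls that were higher was 71.1% at 4 h, against 60% as deposited, 30.8% against 42.1% for 16 h against 4 h, 30.3% against 42.1% for 48 h against 16 h and 23.8% against 39.3% for 48 h against 4 h, and the member counts did not move. Deviations of same-numbered replicates from their group means correlated only weakly over all genes (-0.244 to 0.196). With 2 arrays a group this cannot settle whether the numbers pair the arrays, and the labels do not say. With the replicate block, 2 members were higher at 16 h, 2 higher and 1 lower at 48 h, and all genes gave 25, 1261 and 1729.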
